A study of Mus musculus with 12 samples.

Results

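Opposite-strand probe pairs are pairs of 60-base array probes. In each pair 1 probe carries at least 25 consecutive bases of the reverse complement of the other. The probes thus read complementary strands over that run. The array held 90752 different probes, and 2054 of them had at least 1 such partner. Pairs were chosen from the probe sequences alone: each probe had exactly 1 opposite-strand partner and at most 2 other probes sharing 25 bases with it on its own strand. This gave 289 pairs, or 578 probes. A further 9 pairs with exactly 1 partner were left out because a probe had 3 to 16 neighbours on its own strand, and 7 pairs stood at the limit of 2. No 2 of the 289 pairs shared 25 bases with each other (27 member probes share 25 bases with another probe of their own strand). Most pairs had no genome position, so whether different pairs lie along 1 transcript was not tested. The probes within a pair share the run by construction.

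The arrays measured total RNA from the sciatic nerve of C57Bl6 mice of about 2 months. The right nerve was crushed for 30 s at the upper thigh under chloral hydrate anaesthesia, a ligation marked the site, and 0.5 cm of nerve distal to it was taken at day 0, 3, 7 or 14. Each day had 3 samples, each a pool of 6 mice (18 mice a day, 72 in all), and each sample was hybridised to 1 one-colour array. All 4 groups share strain, anaesthesia, surgery and ligation, and no unoperated nerve was analysed here. Since mice were pooled, the spread between the 3 arrays of a day is a spread between pools, and precision is limited by how few arrays there are. The question named by the series title is how long non-coding RNAs in the distal nerve change after injury. The pairs ask whether signals of complementary strands change together. The probes carry numbers and no gene names, so the tissue's defining markers were not analysed here.

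Many loci are transcribed from both strands. An antisense transcript may overlap a gene's end, its promoter or its body, and many long non-coding RNAs are of this kind. Some microRNA hairpins lie at loci where the opposite strand also folds into an annotated hairpin, each giving its own mature microRNA. In a crushed nerve, axons distal to a crush break down, Schwann cells leave the myelinating state and blood-borne cells enter, and the axons grow back later. An array of this kind carries the same sequence as the transcript each probe is designed for, so a pair is read here as a separate signal for each strand.

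The sequences below belong to pairs with a called change of the strand difference that are described further on, and are shown because those results turn on them. Each is written 5′ to 3′, and capitals mark the run that is reverse complementary between the probes of a pair.
MOUSELNCRNA_60922: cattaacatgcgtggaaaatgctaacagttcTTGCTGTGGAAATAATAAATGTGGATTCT
MOUSELNCRNA_22167: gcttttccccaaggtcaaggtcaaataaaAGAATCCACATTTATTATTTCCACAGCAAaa
MOUSELNCRNA_72023: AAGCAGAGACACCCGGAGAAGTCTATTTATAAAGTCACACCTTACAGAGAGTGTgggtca
MOUSELNCRNA_35147: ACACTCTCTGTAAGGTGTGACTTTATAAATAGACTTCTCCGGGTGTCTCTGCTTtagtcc
MOUSELNCRNA_84641: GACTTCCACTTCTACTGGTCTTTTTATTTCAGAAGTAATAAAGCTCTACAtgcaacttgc
MOUSELNCRNA_59330: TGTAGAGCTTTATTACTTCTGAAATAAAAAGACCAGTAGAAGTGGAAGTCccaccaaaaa
MOUSELNCRNA_56708: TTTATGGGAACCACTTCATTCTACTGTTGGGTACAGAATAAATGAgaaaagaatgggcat
MOUSELNCRNA_87991: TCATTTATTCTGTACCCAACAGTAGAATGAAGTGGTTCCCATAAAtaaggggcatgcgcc
MOUSELNCRNA_7051: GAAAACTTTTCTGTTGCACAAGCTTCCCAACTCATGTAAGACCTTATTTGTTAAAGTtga
MOUSELNCRNA_81927: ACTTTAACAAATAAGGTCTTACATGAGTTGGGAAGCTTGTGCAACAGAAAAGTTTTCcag
MOUSELNCRNA_53483: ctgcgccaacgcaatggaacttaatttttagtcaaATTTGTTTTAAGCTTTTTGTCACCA
MOUSELNCRNA_1102: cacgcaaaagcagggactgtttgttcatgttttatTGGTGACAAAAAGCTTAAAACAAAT
MOUSELNCRNA_61654: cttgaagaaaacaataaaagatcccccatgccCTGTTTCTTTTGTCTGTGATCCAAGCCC
MOUSELNCRNA_78028: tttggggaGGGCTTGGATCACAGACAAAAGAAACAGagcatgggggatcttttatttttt
In MOUSELNCRNA_72023, MOUSELNCRNA_84641, MOUSELNCRNA_56708 and MOUSELNCRNA_7051 the shared run starts at the first base of both probes, so the probes overlap by their 5′ ends and each runs on past the other. MOUSELNCRNA_53483 and MOUSELNCRNA_1102 overlap by their 3′ ends. In MOUSELNCRNA_22167 and MOUSELNCRNA_78028 the run ends inside the probe.

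The following sequences belong to pairs whose strands moved in the same direction. MOUSELNCRNA_13603 and MOUSELNCRNA_3143 are reverse complements over all 60 bases. In MOUSELNCRNA_70838 the run ends inside the probe, at a base that does not pair with MOUSELNCRNA_70245.
MOUSELNCRNA_6308: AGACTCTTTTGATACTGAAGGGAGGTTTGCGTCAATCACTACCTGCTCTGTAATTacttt
MOUSELNCRNA_49393: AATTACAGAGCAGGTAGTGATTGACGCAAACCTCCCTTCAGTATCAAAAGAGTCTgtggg
MOUSELNCRNA_70838: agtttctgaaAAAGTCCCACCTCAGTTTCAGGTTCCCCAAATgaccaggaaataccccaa
MOUSELNCRNA_70245: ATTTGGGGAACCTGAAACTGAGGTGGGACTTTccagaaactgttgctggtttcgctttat
MOUSELNCRNA_50299: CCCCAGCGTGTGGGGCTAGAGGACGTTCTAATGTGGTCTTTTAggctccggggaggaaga
MOUSELNCRNA_55575: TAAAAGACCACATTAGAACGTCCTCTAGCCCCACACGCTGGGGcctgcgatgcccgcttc
MOUSELNCRNA_13603: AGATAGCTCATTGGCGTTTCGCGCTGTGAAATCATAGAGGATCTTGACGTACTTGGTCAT
MOUSELNCRNA_3143: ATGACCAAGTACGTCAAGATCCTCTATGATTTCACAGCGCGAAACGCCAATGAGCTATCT

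Pairs that lie in microRNA hairpins are shown because they are the members that could be named. Probes were set against the RefSeq tables of mouse hairpins and promoters (GRCm38.p6): 43 probes of 24 pairs matched over all 60 bases, 36 probes of 20 pairs in a hairpin and the other 4 pairs in promoters. MOUSELNCRNA_53252 matches the Mir142 strand at chr11:87756868-87756927 and MOUSELNCRNA_85180 the Mir142b strand at chr11:87756853-87756912. MOUSELNCRNA_13971 lies on the Mir338 strand at chr11:120014765-120014824 and MOUSELNCRNA_8480 on the Mir3065 strand at chr11:120014788-120014847. MOUSELNCRNA_12764 lies on the Mir219a-1 strand at chr17:34025009-34025068, with MOUSELNCRNA_56431 on the Mir219c strand. MOUSELNCRNA_4647 lies on the strand of Mirlet7e at chr17:17830382-17830441, and MOUSELNCRNA_6866 on the other strand.
MOUSELNCRNA_53252: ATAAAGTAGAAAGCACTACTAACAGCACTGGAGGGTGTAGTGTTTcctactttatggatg
MOUSELNCRNA_85180: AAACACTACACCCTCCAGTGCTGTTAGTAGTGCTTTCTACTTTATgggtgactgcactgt
MOUSELNCRNA_13971: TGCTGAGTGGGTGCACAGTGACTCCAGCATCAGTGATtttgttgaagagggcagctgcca
MOUSELNCRNA_8480: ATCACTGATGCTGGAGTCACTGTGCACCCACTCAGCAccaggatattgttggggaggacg
MOUSELNCRNA_12764: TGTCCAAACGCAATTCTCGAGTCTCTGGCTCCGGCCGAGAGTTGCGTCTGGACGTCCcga
MOUSELNCRNA_56431: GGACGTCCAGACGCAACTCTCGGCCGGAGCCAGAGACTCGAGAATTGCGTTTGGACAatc
MOUSELNCRNA_4647: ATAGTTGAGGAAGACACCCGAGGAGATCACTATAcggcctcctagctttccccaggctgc
MOUSELNCRNA_6866: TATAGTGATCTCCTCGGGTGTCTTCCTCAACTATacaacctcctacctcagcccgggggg
The mature microRNAs of the first 2 loci follow, with the seed (bases 2 to 8) in capitals. No 2 of these 4 share a seed, although each pair comes from complementary strands of 1 locus.
mmu-miR-142a-3p: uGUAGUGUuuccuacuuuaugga
mmu-miR-142b: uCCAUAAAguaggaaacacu
mmu-miR-338-3p: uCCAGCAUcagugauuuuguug
mmu-miR-3065-5p: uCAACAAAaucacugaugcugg
MOUSELNCRNA_53252 holds the whole of mmu-miR-142a-3p and MOUSELNCRNA_13971 the whole of mmu-miR-338-3p. A probe of 60 bases is longer than a mature microRNA, so its signal is given here as that of the strand with the hairpin and not as a level of the mature microRNA.

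The shared run had a median length of 37 bases (quartiles 28 and 48). It was 25 bases in 25 pairs and 26 bases in 21, at least 40 in 124, and the whole 60 in 6. In 153 pairs the probes overlapped by their 5′ ends and in 34 by their 3′ ends, while in 96 the run ended inside a probe. The letters AATAAA, the usual polyadenylation signal, were in the brighter probe only of 36 pairs, in the dimmer only of 25 and in both of 14. That is 15.4% of member probes against 14.7% of all probes on the array. The reverse complement TTTATT was in the brighter probe only of 21 pairs and in the dimmer only of 33, and in 3.91% of all probes. Median GC content was 43.3% in the member probes and 41.7% in all probes.

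The strands of a pair were usually far apart in level. Levels are log2 of the scanner's processed signal, scaled between arrays, and 1 unit is a 2-fold difference. Because probes can bind with different strength, levels of different probes are described here and not tested. The brighter probe of a pair, by its mean over the 12 arrays, had a median level of 10.32 and the dimmer a median of 6.42. The difference had a median of 3.13, or 8.76-fold (quartiles 1.39 and 4.91). It was under 2-fold in 61 pairs, over 8-fold in 151 and over 64-fold in 53. These counts include probes at background: of the 173 pairs with both probes above background on all 12 arrays, 33 differed by under 2-fold, 87 by over 8-fold and 28 by over 64-fold, with a median of 3.02, or 8.09-fold (quartiles 1.44 and 4.52). The same probe was the brighter on all 12 arrays in 239 pairs.

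Both strands gave signal in most pairs. In 173 pairs the scanner software flagged both probes as well above background throughout the 12 arrays, and in 44 only 1 was, with its partner above background on 1 to 11 arrays. In 23 pairs 1 probe was above background on all 12 arrays and its partner on none. In 38 pairs neither probe reached all 12 arrays, and in 11 no probe was above background on any array. Of the member probes 71.5% were above background on all 12 arrays, against 58.2% of all probes. This share was 83% of the brighter and 59.9% of the dimmer probes.

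The pair with the highest dimmer probe was MOUSELNCRNA_70580 and MOUSELNCRNA_58363, which differed by 0.01 in mean level. MOUSELNCRNA_70580 stood at 14.51 ± 0.23 (SD, n = 3) at day 0 and MOUSELNCRNA_58363 at 14.49 ± 0.15. Neither probe was called on any day (the lowest limma adjusted p was 0.258). The next were MOUSELNCRNA_56607 with MOUSELNCRNA_10595, MOUSELNCRNA_183 with MOUSELNCRNA_61467, and MOUSELNCRNA_83848 with MOUSELNCRNA_11136. MOUSELNCRNA_183 and MOUSELNCRNA_61467 differed by 0.30 in mean level. In the other 2 pairs both strands were bright and still 3.00 and 2.70 apart.

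Pairs with signal on 1 strand only were led by MOUSELNCRNA_81804, at 12.17, 12.30 and 12.24 at day 0. Its partner MOUSELNCRNA_57931 was not well above background on any array. MOUSELNCRNA_81804 rose to 13.05, 13.06 and 13.24 at day 3, with all 3 arrays above those of day 0 (log2 change 0.88 ± 0.09 SE, limma adjusted p = 2.02e-05), and was back at 12.14, 12.10 and 12.21 at day 14. The other 3 pairs of this kind named by level were MOUSELNCRNA_56889, MOUSELNCRNA_5248 and MOUSELNCRNA_9255 with their partners. MOUSELNCRNA_5248 fell at day 3 by 0.39 (limma adjusted p = 0.0131) and MOUSELNCRNA_9255 by 0.78 (limma adjusted p = 0.00104). MOUSELNCRNA_56889 fell at day 7 by 0.64 and at day 14 by 0.93 (limma adjusted p = 0.0105 and 0.00151), and with the slide as a fixed block both calls were lost (changes of -0.27 and -0.28).

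The arrays were on 3 slides, and these do not cross the days evenly. Slide 1 held replicates 1 and 2 of day 0 and of day 3. Slide 2 held replicate 3 of both days with replicates 2 and 3 of day 7, and slide 3 held replicate 1 of day 7 with all of day 14. No slide held day 0 and day 14 together, so a fit with the slide as a fixed block compares these days only through day 7. Values within slides and with the block are given below where they change a call.

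Each probe was tested for a change from day 0 with limma, with Benjamini-Hochberg adjustment over the 62803 probes that, on at least 1 day, had a signal well over background in each of the 3 arrays. A call is an adjusted p below 0.05. Of the 578 member probes 472 passed that filter, 263 of them the brighter and 209 the dimmer of their pair. A fall in the signal of a strand can be fewer cells of a type or less RNA per cell, and these arrays of whole nerve cannot tell them apart. At day 3, 201 member probes were called, 42.6% of those tested against 44.4% of all probes. At day 7 it was 174 (36.9%, against 44.4%) and at day 14 it was 181 (38.3%, against 48.4%). Calls with a change of at least 2-fold numbered 59 at day 3 (12.5%, against 18.7% of all probes), 53 at day 7 (11.2%, against 16.6%) and 49 at day 14 (10.4%, against 17.4%). In the F test over the 4 days 307 member probes were called (65%, against 71.1%).

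The direction of the probe calls shifted over time. At day 3, 113 member probes rose and 88 fell, where 21.7% of all probes rose and 22.7% fell. At day 7, 61 rose and 113 fell (all probes: 20.4% and 24%), and at day 14, 63 rose and 118 fell (all probes: 19.4% and 29%). This split turns on the scaling: with quantile normalization 88 rose and 97 fell at day 7, and 98 rose and 95 fell at day 14. The median change of all probes was -0.11 and -0.13 at these days with the scaling used and -0.01 and 0.01 with quantile normalization. With the slide as a fixed block, 16 rose and 50 fell at day 14.

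The difference between strands within an array does not depend on a constant scaling of the array, and its change was tested in 298 opposite-strand pairs, 209 of them members with both probes tested. At day 3 the strand difference changed in 88 of the 209 pairs (42.1%, against 39.3% of all 298). It changed in 87 at day 7 (41.6%, against 41.6%) and in 71 at day 14 (34%, against 33.6%). The 298 include the members, and of the 89 pairs that are no members 32.6% were called at day 3, 41.6% at day 7 and 32.6% at day 14; the difference from the members was not tested. The difference grew in 36 and shrank in 52 pairs at day 3, grew in 40 and shrank in 47 at day 7, and grew in 38 and shrank in 33 at day 14. These directions were not counted over all 298 pairs. They are relative to the brighter probe, which was set from the same arrays. The split at day 14 turns on the processing. With quantile normalization the difference grew in 37 pairs and shrank in 40 on that day, and with the slide as a fixed block in 8 and 21. The F test over the 4 days called 115 pairs (55%, against 52.3%). The strand difference changed at least 2-fold in 40 pairs at day 3 (all 298 pairs: 17.4%), in 33 at day 7 (15.1%) and in 27 at day 14 (12.8%).

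In 39 pairs the strand difference was called on all 3 days in the same direction (18.7%, against 18.5% of all 298 pairs), and in 78 on no day (37.3%, against 40.3%). All 88 calls of day 3 had the same direction within slide 1 and within slide 2, and all 87 calls of day 7 within slide 2. The calls were made from these same arrays, so this agreement is no independent check. At day 14, 67 of the 71 calls kept their direction with the slide as a fixed block, but the share called fell to 13.9%. The count at day 14 also fell to 21.5% of pairs tested without replicate 1 of day 14, and the count of member probes called to 24.4% without replicate 1 of day 0. Calls at day 14 that were lost under the slide block are given below with their value there.

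Taking the strands' own calls together, both probes rose in 23 of 209 pairs at day 3 (11%, against 8.72% of all 298 pairs) and both fell in 14 (6.7%, against 6.38%). They were called in opposite directions in 18 pairs (8.61%, against 7.05%). Only 1 strand was called in 67 pairs, and in 43 of these the strand difference itself was called. This class was not counted over all 298 pairs, and 44.4% of all probes were called at day 3. At day 7 both rose in 11 pairs (all pairs: 4.36%), both fell in 14 (5.7%) and 8 moved in opposite directions (3.36%). At day 14 the counts were 11 (4.36%), 14 (6.38%) and 11 (5.03%). On at least 1 day 53 pairs moved together (25.4%, against 22.1% of all 298 pairs) and 28 oppositely (13.4%, against 11.4%). On all 3 days 10 moved together (4.78%, against 4.36%) and 2 oppositely (0.957%, against 0.671%). Across pairs, the log2 changes of the brighter and the dimmer probe had correlations of 0.20, 0.14 and 0.11 for days 3, 7 and 14. These values were positive but low, and they were not tested.

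How the probes overlap was set beside these counts after the values had been seen, so no test was made. The strand difference was called at day 3 in 42 of 101 pairs overlapping by their 5′ ends (41.6%), in 18 of 28 overlapping by their 3′ ends (64.3%) and in 27 of 77 with a run ending inside a probe (35.1%). At day 7 these shares were 43.6%, 57.1% and 35.1%, and at day 14 they were 35.6%, 42.9% and 29.9%. Opposite calls at day 3 numbered 6 in the pairs that overlapped by their 5′ ends and 7 in the smaller number that overlapped by their 3′ ends. The share was highest in the 3′ class on each of the 3 days, in the fewest pairs.

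The strands of MOUSELNCRNA_60922 and MOUSELNCRNA_22167, both above background on every array compared, came closer after injury. MOUSELNCRNA_22167 was at 5.15, 5.53 and 5.32 at day 0, 8.80, 8.24 and 9.35 at day 3, 7.39, 8.20 and 7.39 at day 7, and 5.92, 5.77 and 5.47 at day 14. MOUSELNCRNA_60922, the far brighter strand, went from 14.18, 14.16 and 14.21 to 13.18, 13.05 and 13.62 at day 3, and stood at 13.59, 13.48 and 13.23 at day 7 and 13.82, 13.69 and 13.70 at day 14. The dim strand was highest at day 3, and neither strand's day 3 overlapped its day 0. MOUSELNCRNA_22167 rose 11-fold at day 3 (3.46 ± 0.29 SE, limma adjusted p = 3.36e-06) while MOUSELNCRNA_60922 fell by 0.90 (limma adjusted p = 0.000479). MOUSELNCRNA_60922 changed with the slide block by -0.90, -1.01 and -0.86 on the 3 days, so the day of its lowest level is not settled. Their difference shrank from 8.85 ± 0.20 (SD, n = 3) to 4.49 ± 0.29 at day 3, 5.77 ± 0.47 at day 7 and 8.02 ± 0.18 at day 14. The changes were -4.36, -3.08 and -0.83 (limma adjusted p = 1.68e-07, 2.43e-06 and 0.0196), and the call of day 14 was lost without replicate 1 of day 0 (limma adjusted p = 0.0722), replicate 1 of day 14 (0.0687) or replicate 2 of day 14 (0.0561). The change at day 14 was -1.39 with the slide block.

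In MOUSELNCRNA_72023 and MOUSELNCRNA_35147 the strands were called in opposite directions on all 3 days. MOUSELNCRNA_72023 rose from 8.66, 9.09 and 8.54 at day 0 to 11.23, 11.14 and 11.67 at day 3, 9.70, 9.77 and 9.92 at day 7 and 9.24, 9.20 and 9.47 at day 14. MOUSELNCRNA_35147 fell from 7.57, 7.59 and 7.26 to 6.82, 6.94 and 6.78, then 6.99, 6.76 and 6.77, then 6.67, 6.77 and 6.65. Each later day lay wholly above day 0 for the first strand and wholly below it for the second. The strand difference grew from 1.29 ± 0.21 to 4.50 ± 0.36 at day 3, a 9.23-fold change (3.21 ± 0.20 SE, limma adjusted p = 4.01e-07), and was still larger by 1.66 at day 7 and 1.32 at day 14 (limma adjusted p = 0.000102 and 0.000778). The rise of MOUSELNCRNA_72023 at day 14, 0.54, was not called with the slide block (0.63, limma adjusted p = 0.274).

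MOUSELNCRNA_84641 and MOUSELNCRNA_59330 were the other pair with opposite calls on all 3 days, with smaller changes and a smaller spread. MOUSELNCRNA_84641 was at 11.68, 11.69 and 11.74 at day 0, 12.52, 12.49 and 12.56 at day 3, 12.29, 12.38 and 12.51 at day 7, and 12.24, 12.20 and 12.24 at day 14. MOUSELNCRNA_59330 was at 9.97, 9.94 and 9.80 at day 0, 9.11, 9.11 and 9.13 at day 3, 9.29, 9.21 and 8.98 at day 7, and 9, 9.06 and 9.08 at day 14. No later array of either strand overlapped day 0. The strand difference grew by 1.60, 1.42 and 1.38 (each ± 0.14 SE; limma adjusted p = 4.79e-06, 1.63e-05 and 4.16e-05).

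In MOUSELNCRNA_56708 and MOUSELNCRNA_87991 both strands rose, the dimmer far more. MOUSELNCRNA_87991 went from 7.65, 7.89 and 7.97 at day 0 to 11.32, 11.52 and 11.64 at day 3, 11.96, 11.64 and 12.14 at day 7 and 11.10, 10.89 and 11.06 at day 14. MOUSELNCRNA_56708 went from 10.76, 10.89 and 10.80 to 11.33, 11.41 and 11.46, then 11.98, 12 and 11.92, then 11.73, 12.04 and 12.14. The strands stood 2.98 ± 0.14 apart at day 0 and -0.09 ± 0.09 at day 3, with single arrays of day 3 on either side of 0. They stood 0.06 ± 0.29 apart at day 7 and 0.96 ± 0.28 at day 14. The rises of MOUSELNCRNA_87991 were 12.6-fold, 16.8-fold and 9.06-fold at days 3, 7 and 14 (limma adjusted p = 3.28e-08, 3.27e-08 and 3.83e-07), and those of MOUSELNCRNA_56708 1.5-fold, 2.22-fold and 2.23-fold. The strand difference changed by -3.07, -2.92 and -2.02 (limma adjusted p = 2.48e-07, 6.44e-07 and 1.41e-05).

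MOUSELNCRNA_7051 and MOUSELNCRNA_81927, which share 57 of 60 bases, had the same form. MOUSELNCRNA_81927 went from 5.96, 5.77 and 5.73 at day 0 to 9.36, 9.23 and 9.86 at day 3, 8.03, 8.18 and 8.49 at day 7 and 8.23, 7.71 and 8.05 at day 14, wholly above day 0 each time. MOUSELNCRNA_7051 went from 12.37, 12.25 and 12.49 to 13.04, 12.88 and 13.29 at day 3. The dimmer strand rose 12.7-fold and the brighter 1.62-fold at day 3, and the strand difference changed by -2.97, -2.00 and -1.77 on the 3 days (limma adjusted p = 1.68e-07, 2.43e-06 and 1.41e-05).

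MOUSELNCRNA_53483 and MOUSELNCRNA_1102 parted at day 3, mostly through a fall of 1 strand. MOUSELNCRNA_1102 was at 11.02, 10.85 and 11.03 at day 0, 8.18, 8.30 and 8.55 at day 3, 10.37, 9.87 and 10.14 at day 7 and 11.51, 11.36 and 11.22 at day 14. MOUSELNCRNA_53483 stayed between 11.31 and 12.18 on all 12 arrays. It was called higher at day 3, so the strands were called in opposite directions on that day. The strands were 0.45 ± 0.14 apart at day 0 and 3.62 ± 0.33 at day 3, a change of 3.18 ± 0.20 SE (limma adjusted p = 4.01e-07), and 0.07 ± 0.16 apart at day 14. MOUSELNCRNA_1102 fell 6.16-fold at day 3 (limma adjusted p = 2.05e-07) and 1.79-fold at day 7 (limma adjusted p = 0.000996).

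The largest change at day 3 by the rule for naming pairs was that of MOUSELNCRNA_23545 and MOUSELNCRNA_23821, and it rests on few arrays. MOUSELNCRNA_23821 was at 14.92, 9.18 and 13.51 at day 0, 6.31, 6.76 and 7.54 at day 3, 12.47, 7.20 and 9.85 at day 7 and 12.95, 12.30 and 8.99 at day 14. MOUSELNCRNA_23545 stayed between 11.29 and 11.60. The arrays of day 0 thus had an SD of 2.99 in MOUSELNCRNA_23821, and its partner one of 0.10. The change of the strand difference at day 3 was 5.63 ± 1.61 SE (limma adjusted p = 0.0168). Without replicate 1 of day 0 it was 4.39 (limma adjusted p = 0.0659) and without replicate 3 of day 0 it was 5.20 (limma adjusted p = 0.0514).

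MOUSELNCRNA_78028 went from background to a high level, and its pair with MOUSELNCRNA_61654 was chosen for the text after its values were seen. MOUSELNCRNA_78028 was not well above background on the day 0 arrays (2.11, 2.37 and 2.03) and reached 10.36, 9.95 and 11.02 at day 3, 10.06, 10.17 and 10.23 at day 7 and 8.92, 8.49 and 8.69 at day 14. MOUSELNCRNA_61654 was at 8.63, 8.59 and 7.38 at day 0 and 8.10, 8.60 and 8.09 at day 3, with the days overlapping. The rise was at least 113-fold at day 3, at least 92.8-fold at day 7 and at least 33.8-fold at day 14 (limma adjusted p = 7.84e-09, 8.84e-09 and 1.12e-07). Each bound sets the later mean against the lowest signal that counted as well above background on each day 0 array. The partner's change at day 3 was 0.06 ± 0.30 SE. At day 14 the partner was called lower, but with the slide as a fixed block its change was 0.01 (limma adjusted p = 0.992). MOUSELNCRNA_61654 was the brighter on each array of day 0 and the dimmer on each array of the later days.

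Pairs that changed order with both probes above background were few: in 6 of the 289 pairs 1 probe was the brighter on all 3 arrays of 1 day and its partner on all 3 of another. In 1 of them, MOUSELNCRNA_50299 and MOUSELNCRNA_55575, both strands also fell together at day 7. MOUSELNCRNA_50299 was at 7.63, 7.71 and 7.87 at day 0, 5.99, 6.14 and 5.78 at day 3, 6.44, 6.54 and 6.69 at day 7 and 7.82, 7.54 and 7.93 at day 14. MOUSELNCRNA_55575 was at 7.13, 6.97 and 6.75, then 6.67, 6.62 and 6.24, then 5.88, 6.11 and 6.14, then 6.46, 6.49 and 6.56. The brighter strand at day 0 was lowest at day 3 and its partner at day 7. The strand difference went from 0.79 ± 0.31 at day 0 to -0.54 ± 0.12 at day 3, a change of -1.33 ± 0.16 SE (limma adjusted p = 7.39e-05).

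Strands also moved together. In MOUSELNCRNA_6308 and MOUSELNCRNA_49393, which share 55 bases, both fell at day 3 and rose at day 14. MOUSELNCRNA_6308 was at 10.83, 10.65 and 10.87 at day 0, 9.38, 9.09 and 9.78 at day 3, 10.96, 10.35 and 10.77 at day 7 and 12.05, 11.98 and 11.96 at day 14. MOUSELNCRNA_49393 was at 7.39, 7.29 and 7.32, then 6.37, 6.20 and 6.45, then 7.67, 7.35 and 7.59, then 8.87, 8.57 and 8.87. For both strands day 3 lay wholly below and day 14 wholly above day 0. MOUSELNCRNA_6308 changed by -1.36 and 1.21 (limma adjusted p = 0.00013 and 0.000564) and MOUSELNCRNA_49393 by -0.99 and 1.43 (limma adjusted p = 6.97e-05 and 1.23e-05) at days 3 and 14. Their difference changed by -0.37, -0.29 and -0.22 on the 3 days and was not called (limma adjusted p = 0.0594, 0.124 and 0.248). Under the slide block these changes were -0.37, -0.53 and -0.60, and those of days 3 and 7 were called (limma adjusted p = 0.0195 and 0.0196). With the slide block the rise of MOUSELNCRNA_6308 at day 14 was 0.59 (limma adjusted p = 0.185), while that of MOUSELNCRNA_49393 was still called.

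MOUSELNCRNA_70838 and MOUSELNCRNA_70245 both rose on all 3 days. MOUSELNCRNA_70838 went from 12.55, 12.71 and 13.16 at day 0 to 14.30, 14.29 and 14.64 at day 3, and MOUSELNCRNA_70245 from 8.67, 8.92 and 9.16 to 9.80, 9.87 and 10.30. Neither strand's day 3 overlapped day 0. The rises at day 3 were 3.04-fold and 2.10-fold (limma adjusted p = 2.11e-05 and 0.000207). At day 14 they were 1.62-fold and 1.55-fold, and neither was called with the slide block (0.27 and 0.29 on the log2 scale). MOUSELNCRNA_36561 and MOUSELNCRNA_39192 rose together at day 3 by 1.94 and 0.85 (limma adjusted p = 2.27e-06 and 0.00656).

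MOUSELNCRNA_33628 and MOUSELNCRNA_81969 had the largest joint fall at day 3 among pairs with both probes above background on all 6 arrays compared. MOUSELNCRNA_33628 went from 10.34, 10.36 and 10.13 to 9.33, 9.26 and 9.01, and MOUSELNCRNA_81969 from 8.64, 8.57 and 8.44 to 7.22, 7.35 and 7.46. The falls were 2.11-fold and 2.31-fold (limma adjusted p = 4.51e-05 and 2.13e-05), and the strand difference changed by 0.13 ± 0.18 SE. MOUSELNCRNA_63926 and MOUSELNCRNA_61296 fell together at day 7, by 0.92 and 0.89 (limma adjusted p = 0.0401 and 0.00153), and the first call was lost with quantile normalization (-0.66, limma adjusted p = 0.123) and with the slide block (-0.69, limma adjusted p = 0.278). With normexp background correction the changes were -0.31 and -0.24, and neither was called. At day 14 MOUSELNCRNA_60370 and MOUSELNCRNA_57112 fell by 0.99 and 0.61 (limma adjusted p = 0.00862 and 0.00836), and MOUSELNCRNA_8285 and MOUSELNCRNA_33796 by 0.92 and 0.57 (limma adjusted p = 0.0112 and 0.046). With the slide block the change of MOUSELNCRNA_60370 was -1.49, and those of MOUSELNCRNA_57112, MOUSELNCRNA_8285 and MOUSELNCRNA_33796 were -0.40, -0.53 and -0.01, of which none was called.

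The whole-probe pair MOUSELNCRNA_13603 and MOUSELNCRNA_3143, chosen for the text after its values were seen, also fell on both strands. MOUSELNCRNA_13603 went from 7.55, 7.48 and 7.99 at day 0 to below background at day 3 (3.21, 1.82 and 3.07) and stood at 7.08, 6.77 and 6.81 at day 14, still below every array of day 0 (a change of -0.79, or of -1.97 with the slide block). MOUSELNCRNA_3143 went from 5.18, 5.06 and 5.34 to below background on all later arrays. The falls at day 3 were at least 13.1-fold and at least 2.34-fold (limma adjusted p = 9.71e-07 and 8.53e-06), and the second call was lost with normexp background correction (limma adjusted p = 0.104). Since both strands were below background at day 3, their order on that day is not known.

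At day 7 and day 14 the naming rule added MOUSELNCRNA_1942 with MOUSELNCRNA_55311, and at day 14 MOUSELNCRNA_67451 with MOUSELNCRNA_84884. MOUSELNCRNA_1942 rose from 8.01, 8.03 and 7.76 at day 0 to 9.46, 9.48 and 9.53 at day 3, and MOUSELNCRNA_55311 spread over 7.05, 6.49 and 5.62 at day 0 against 5.38, 5.22 and 5.18 at day 14. Their difference grew by 1.88 at day 7 and 2.00 at day 14 (limma adjusted p = 0.00126 and 0.00153). It grew with the slide block by 1.17 at day 7 (limma adjusted p = 0.0141) and 0.70 at day 14 (limma adjusted p = 0.291), while within slide 2 the call of day 7 was lost (limma adjusted p = 0.0653). The change of MOUSELNCRNA_55311 at day 7 was -0.61, and 0.20 with the slide block. MOUSELNCRNA_84884 was at 9.73, 9.70 and 8.81 at day 0, the lowest value being the array on slide 2, and at 8.28, 8.28 and 8.36 at day 14. The strand difference of this pair grew by 1.69 at day 14 (limma adjusted p = 0.00722) and by 0.34 with the slide block (limma adjusted p = 0.231).

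The microRNA hairpins gave little signal. Of the 20 hairpin pairs, 12 had an annotated hairpin on each strand. Both probes were above background on all 12 arrays in 1 pair and no probe on any array in 6. Only 14 of the 40 hairpin probes were tested, with 2 rising and 3 falling at day 3, 1 and 4 at day 7, and 3 and 4 at day 14. These calls are 35.7%, 35.7% and 50% of the 14, against 44.4%, 44.4% and 48.4% of all probes. In 6 of the 14 all arrays of slide 1 at days 0 and 3 stood above the arrays of slide 2 of the same days, by over 0.5 on average. Member probes outside the hairpins also did so, but their share was not counted, so this is not read as a trait of the hairpins. Over all member probes tested the median difference of slide 1 from slide 2 on those days was -0.07.

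Mir142 is a microRNA gene of blood cells. MOUSELNCRNA_53252, on its strand, was not well above background at day 0 (2.84, 2.29 and 2.31) and stood at 5.86, 5.94 and 6.29 at day 3, 6.50, 5.72 and 5.47 at day 7 and 5.83, 5.79 and 5.88 at day 14. MOUSELNCRNA_85180, on the Mir142b strand, was at 5.65, 5.49 and 4.67 at day 0, 4.64, 4.73 and 4.57 at day 3, 4.47, 4.52 and 4.34 at day 7 and 5.01, 4.52 and 4.24 at day 14. The order of the strands was opposite at day 0 and on every later array. The Mir142 strand rose at least 5.33-fold at day 3, at least 4.84-fold at day 7 and at least 4.64-fold at day 14 (limma adjusted p = 8.95e-07, 1.63e-06 and 4.33e-06). The Mir142b strand fell by 0.83 at day 7 (limma adjusted p = 0.019). At day 14 it was not well above background on any array, and its fall was at least 1.49-fold (limma adjusted p = 0.0423). Both calls were lost with quantile normalization and with the slide block. Its change of -0.62 at day 3 was not called (limma adjusted p = 0.0624), but was with the replicate number as a block (limma adjusted p = 0.0239). With the day 0 level of the Mir142 strand at its bound, the strand difference rose by at least 3.03 at day 3 and at least 3.11 at day 7 (limma adjusted p = 1.52e-06 and 2e-06). No value is given for day 14, when the Mir142b strand was at background. At day 3 the Mir142b strand was above background on 2 of 3 arrays.

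Mir338 lies in an intron of Aatk, and its microRNA is known from myelinating glia. Both strands of this hairpin fell at day 3. MOUSELNCRNA_13971, on the Mir338 strand, went from 8.15, 8.12 and 8.44 at day 0 to 5.49, 5.53 and 6.49 at day 3, 7.89, 7.17 and 7.21 at day 7 and 9.01, 8.99 and 8.90 at day 14. MOUSELNCRNA_8480, on the Mir3065 strand, went from 5.56, 5.46 and 5.84 to 3.82, 3.97 and 3.99, then 4.70, 4.27 and 4.29, then 5.95, 5.93 and 5.85. Days 3 and 7 lay wholly below day 0 on both strands. The falls at day 3 were 5.28-fold and 3.23-fold (limma adjusted p = 2.79e-05 and 3.03e-06). The second was measured above background on 1 of the 3 arrays of day 3, and its call was lost with normexp background correction. The strand difference changed by -0.71 at day 3 (limma adjusted p = 0.0187) and by -0.11 within slide 2. MOUSELNCRNA_13971 was 0.73 above day 0 at day 14 (limma adjusted p = 0.0421) and -0.40 with the slide block, so its direction at day 14 turns on the slide.

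Mir219a-1 gives a microRNA known from myelinating glia as well. Its strand, MOUSELNCRNA_12764, was at 8.56, 8.54 and 8.72 at day 0, 9.24, 8.91 and 8.93 at day 3, 8.21, 8.25 and 8.58 at day 7 and 7.83, 7.96 and 7.72 at day 14. The Mir219c strand, MOUSELNCRNA_56431, was not well above background on any array. MOUSELNCRNA_12764 changed by 0.42 at day 3 and by -0.77 at day 14 (limma adjusted p = 0.0249 and 0.00124). With the slide block the second was -0.57 (limma adjusted p = 0.162).

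Mirlet7e was the hairpin with both strands above background on all arrays, and the strands were close. MOUSELNCRNA_4647 was at 7.84, 7.74 and 7.08 at day 0 and 7.12, 7.07 and 7.00 at day 14, and MOUSELNCRNA_6866 at 7.67, 7.57 and 6.84 against 6.62, 6.39 and 6.54. On both strands the array of slide 2 was the lowest of day 0. MOUSELNCRNA_6866 fell by 0.85 at day 14 (limma adjusted p = 0.012), or by 0.16 with the slide block (limma adjusted p = 0.567). The sense strand of Mirlet7f-1, MOUSELNCRNA_77592, went from 5.92, 6.22 and 6.22 at day 0 to 5.28, 5.19 and 5.30 at day 3 (-0.86 ± 0.11 SE, limma adjusted p = 0.0001), while its partner was seldom above background.

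Of the 4 promoter pairs, those of Crot, Pfn1 and Gm13165 had both probes matched over all 60 bases, and that of Ccr1l1 only 1. Only the pair of Crot, which encodes a peroxisomal carnitine acyltransferase, is described here. MOUSELNCRNA_6496 lies on the strand opposite to the gene at chr5:8997330-8997389, upstream of the start site, and stood between 7.32 and 8.40 on all arrays. MOUSELNCRNA_87470, on the gene's strand, was at 5.66, 5.82 and 4.33 at day 0 and 2.89, 2.69 and 3.18 at day 14. It was above background on 2 of 3 arrays at day 0 and on none at day 14, so the size of its change at day 14 is not known. With the slide block the change of the strand difference at day 14 was -0.03, and the day and the slide cannot be told apart here.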

How the data were processed

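RNA of 12 nerve pools was labelled with Cy3 and read on one-colour Agilent arrays. The deposited scanner files hold intensity per spot from Agilent Feature Extraction 10.7.1.1, per the file headers, with background subtracted and no scaling between arrays; the well-above-background and saturation flags are from the same files, and no spot was saturated. Between 64.2% and 79.5% of spots were well above background per array. The series' value table, deposited by the authors, holds log2 values with a median of 6.42 in each column and r of 0.993 to 1 with the scanner's log2 signal; how it was normalized is not given in the sources used here. It served as an alternative, but its counts of probes and pairs called in each direction equalled those with quantile normalization on all 3 days. It thus adds no separate check beyond quantile normalization.

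Outlier spots were dropped and repeated spots averaged, leaving 25 probe values missing. Each array's log2 processed signal was shifted so that its 75th percentile stood at the common mean of 9.34. limma 3.58.1 in R 4.3.3 (lmFit, eBayes) fitted 1 mean per day, with 8 residual degrees of freedom and Benjamini-Hochberg adjustment per contrast over all probes, or over all 298 opposite-strand pairs for the within-array difference, brighter minus dimmer. The code was checked on simulated data. Where every array of 1 day and no array of the other had a probe above background, the fold is a bound: the bright day's mean against the mean, over the dim day's arrays, of the higher of the lowest signal well above background and the probe's own.

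Pairs were named by rule, from those with both probes above background on all 6 arrays compared: per day up to 4 with the largest called change of the strand difference and no overlap, 2 with opposite calls, and 2 rising and 2 falling together; also the 4 with the highest dimmer probe and the 4 with the brightest probe whose partner was never above background. Pairs, lists and rule were chosen with earlier results of these data known. RefSeq matches needed all 60 bases. If the limit of 2 counted the probe itself, 282 pairs would remain. Replicate numbers are from the labels: deviations of same-numbered arrays correlated at 0.325, 0.449 and 0.59 between day 0 and day 3, where they share slides, and the numbers were taken to pair these days only. Differently numbered arrays on slide 1 correlated at 0.347 and 0.408, near the 0.325 and 0.449 of the same-numbered arrays there. These values thus do not show a pairing by number, and the replicate block rests on an assumption. Alternatives changed scaling, background, filter, slide, replicate block, array weights, variance trend, threshold, shared length and the arrays used. Gene names of other probes and the tissue's markers were not analysed here.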

Additional observations from a re-analysis of the deposited data

Results flagged for a closer look

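In 2 pairs the change of the strand difference was called one way at day 3 and the other way at day 14, and the contrast of day 14 with day 3 was also called. For MOUSELNCRNA_71030 and MOUSELNCRNA_3579 the changes from day 0 were -1.59 and 0.71 on the log2 scale, so that day 14 stood 2.30 above day 3. MOUSELNCRNA_71030 was at 15.10, 14.76 and 14.87 at day 0, 13.86, 13.56 and 14.25 at day 3 and 15.63, 15.54 and 15.54 at day 14. Its partner was at 9.76, 9.71 and 9.76, then 10.15, 10.12 and 10.67, then 9.76, 9.47 and 9.83. For MOUSELNCRNA_50299 and MOUSELNCRNA_55575 the changes were -1.33 and 0.47, so that day 14 stood 1.80 above day 3. With the slide as a fixed block the changes at day 14 were 0.30 for the first pair and 0.19 for the second, and neither was called (limma adjusted p = 0.652 and 0.624). The direct contrast of day 14 with day 3 gave a limma adjusted p of 5.97e-05 for the first pair and 1.82e-05 for the second.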

How the results depend on the processing

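Most counts at day 3 kept their size, and those at day 14 did not. Shares are of member probes or member pairs tested and called; except where stated, in the alternatives named here they moved by over 1.5 times. Within slide 2 the probes called were 22% at day 3 and 14.4% at day 7, and the strand differences 26.8% and 17.7%; days 0 and 3 have a single array there and day 7 has 2, so a lone array is assumed to vary like those of day 7. At day 14 the probes called were 14% with the slide as a fixed block, 19.9% with the slide as a random block and 63.8% with array weights, and the strand differences 13.9%, 17.7% and 55.5%. Array weights also gave 58.7% of probes at day 7. At an adjusted p below 0.01 the probes called were 22.5% at day 7 and 20.1% at day 14, and the strand differences 22% and 16.7%. With all 60 bases shared, where only 3 pairs were tested, the probes called at day 14 were 22.2% and the strand differences 0% at days 7 and 14 and 33.3% in the F test. With only the pairs whose run reaches an end of both probes, an alternative chosen after seeing the data, the strand differences were 46.2%, 45.5% and 36.4% at days 3, 7 and 14, each within 1.5 times. Leaving out each array in turn gave 24.4% to 47% of probes and 21.5% to 37.3% of strand differences at day 14, the lowest without replicate 1 of day 0 and without replicate 1 of day 14.

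With the replicate block the probes called were 41.9%, 37.9% and 41.1% at days 3, 7 and 14, and the strand differences 40.7%, 39.2% and 31.6%. At day 3 the replicate block added the call of MOUSELNCRNA_85180. It lost those of MOUSELNCRNA_5364, MOUSELNCRNA_57405 and MOUSELNCRNA_19680, which are not named in the report, and changed no other call among the 396 changes followed. Of the 72 called at day 14, 24 kept the call with the slide as a fixed block; at day 3 all 82 did. With that block 8 changes at day 14 turned their sign: MOUSELNCRNA_1102 -0.10, MOUSELNCRNA_55311 0.32, MOUSELNCRNA_55575 0.03, MOUSELNCRNA_13971 -0.40, MOUSELNCRNA_63204 0.13, MOUSELNCRNA_61654 0.01, MOUSELNCRNA_87470 0.46, and the strand difference of MOUSELNCRNA_6496 with MOUSELNCRNA_87470 -0.03. The cause was not tested. Probes near background have only a bound to their change.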
